A study of Homo sapiens with 6 samples.

Results

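Interferon-stimulated genes are the genes that cells switch on when they sense foreign nucleic acid or receive interferon. 38 such genes, chosen by symbol, were followed in HT-29 cells (a line from a human colorectal tumour) after transfection with siRNA. All 38 were found by Entrez identifier among the 27434 gene rows of each library. 3 groups of 2 RNA-seq libraries were compared: cells given a non-targeting pool (siNT), a pool against the long noncoding RNA HOXA-AS3 (siHOXA-AS3), and a pool against the long noncoding RNA HOXB-AS3 (siHOXB-AS3). Per the labels, each pool was given at 10 nM with DharmaFect 4, and cells were harvested after 48 hours. The methods of the study give a higher dose and another RNA extraction. Every group was transfected with siRNA, so a response shared by the 3 pools cannot be measured here. The question addressed is whether the levels of these genes differed between the pools. Each lncRNA was targeted only by its own pool. Sensing of the siRNAs, their off-target effects and loss of the lncRNA therefore cannot be told apart.

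Double-stranded RNA is read by the endosomal receptor TLR3, by the cytoplasmic helicases RIG-I and MDA5 (gene IFIH1), and by the kinase PKR (gene EIF2AK2). An siRNA is a short double-stranded RNA, and whether any of these sensors read the pools was not tested. Signals of TLR3, RIG-I and MDA5 lead to the release of type I and type III interferons. These bind receptors on the cell surface and lead to the assembly of the factor ISGF3. This factor holds STAT2 and IRF9 and binds the interferon-stimulated response element (ISRE) of many interferon-stimulated genes. Intestinal epithelial cells are known to answer type III interferon in particular.

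The siRNAs are shown because they are the transfected material, with U in capitals since uridine-rich RNA is known to be read by TLR7 and TLR8. The list of the study gives 5 entries for the siHOXA-AS3 pool, of which 4 differ in sequence, and 6 strands for the siHOXB-AS3 pool, which form 3 complementary duplexes of 19 bases (strands 1 and 2, 3 and 4, 5 and 6), each strand ending in UU.
siHOXA-AS3 1: gagacagaaUagcgaacaa
siHOXA-AS3 2: caaUggaagggccgaacaa
siHOXA-AS3 3: aggaaaggacagcgaagcU
siHOXA-AS3 4: gUagacagggcacUcgUUa
siHOXB-AS3 1: cgacaaagggagacaaagUUU
siHOXB-AS3 2: acUUUgUcUcccUUUgUcgUU
siHOXB-AS3 3: gagUcgggcaUgaaagaaaUU
siHOXB-AS3 4: UUUcUUUcaUgcccgacUcUU
siHOXB-AS3 5: gUcaaggggUgaagggaaaUU
siHOXB-AS3 6: UUUcccUUcaccccUUgacUU
For siHOXA-AS3 only single strands are listed, and each second strand was taken as the complement. Over both strands of the 19-base duplexes, U made up 25.0% of the bases in the siHOXA-AS3 pool and 25.4% in the siHOXB-AS3 pool. In paired strands this share follows from the G and C content, which averaged 50% and 49.1%, so it does not compare single strands. Per strand of 19 bases, without the UU ends, U ranged from 1 to 4 in the listed siHOXA-AS3 strands and from 5 to 10 in their complements. In the siHOXB-AS3 pool it ranged from 1 to 9. The motif UGUGU, searched on both strands, occurred 0 times in either pool. The sequences of the siNT pool were not used here.

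The libraries held between 15998518 and 26263938 expected counts, and 13034 genes passed the filter on low counts. HOXA-AS3 had counts of 38 and 18 in siNT, 12 and 12 in siHOXA-AS3, and 30 and 22 in siHOXB-AS3, and its difference in siHOXA-AS3 against siNT was not called (log2 fold change -1.09 ± 0.41 SE, adjusted p = 0.711). HOXB-AS3 had counts of 303 and 213 in siNT, 263 and 208 in siHOXA-AS3, and 67 and 76 in siHOXB-AS3, a difference of -1.96 ± 0.25 against siNT (adjusted p = 0.0678) and of -1.88 ± 0.25 against siHOXA-AS3 (adjusted p = 0.0291). Of 10 colon epithelial markers, 8 were at 19.4 FPKM or more in every library, and CDX2 and GPA33 were under 1 FPKM. The summed FPKM of the 10 was 4578 to 4933 in siNT, 3885 to 5831 in siHOXA-AS3 and 4272 to 4319 in siHOXB-AS3. Of these, the adhesion molecule EPCAM had 288.7 and 278.1 FPKM in siNT, 270.3 and 296.1 in siHOXA-AS3, and 158.5 and 153.3 in siHOXB-AS3, and was lower in siHOXB-AS3 than in siHOXA-AS3 (log2 fold change -0.82 ± 0.14, adjusted p = 0.0471); its part in the differences described here was not tested. The 7 fibroblast and endothelial markers reached at most 0.07 FPKM. Of 6 leukocyte markers, PTPRC, CD3E and ITGAM reached at most 0.1 FPKM. CD14, a receptor of monocytes, had 0.91 and 0.62 FPKM in siNT, 1.21 and 0.84 in siHOXA-AS3, and 0.56 and 0.42 in siHOXB-AS3, a difference of -1.01 ± 0.42 between the knockdowns (adjusted p = 0.266), and its part in the differences described here was not tested. CD68, a lysosomal protein, ranged from 9.74 to 15.7 FPKM. In such bulk samples, fewer cells of a kind and less RNA per cell cannot be told apart. Nothing in the labels says that the 2 libraries of a group came from separate cultures, so p-values measure only the spread between these libraries.

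The interferon-stimulated genes were expressed over a wide range in all 3 groups. FPKM, the fragments of a gene scaled by its length and by the size of the library, is used for levels and allows comparison between genes. 31 of the 38 had a mean of at least 1 FPKM over the 6 libraries, and 11 had at least 10. The highest mean was that of ISG15 at 45.9 FPKM, followed by SP100 at 36.7, BST2 at 33.96, PLSCR1 at 33.1, IFI27 at 24.0 and DTX3L at 19.4. The summed level of the tested members was 354.1 and 356.9 FPKM in siNT, 414.0 and 363.8 in siHOXA-AS3, and 362.0 and 356.1 in siHOXB-AS3. By this sum, siHOXA-AS3 replicate 1 stood above the other 5 libraries. ISG15 alone had 77.3 FPKM in that library and 31.6 to 44.7 in the others. The median log2 CPM (counts scaled to library size) of the members, relative to the siNT mean, was 0.089 there and 0.193 in siHOXA-AS3 replicate 2. IFI44L was the lowest at 0.02 to 0.08 FPKM, with counts of 3 to 10, and was the only member too low to be tested.

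**Figure D1:**
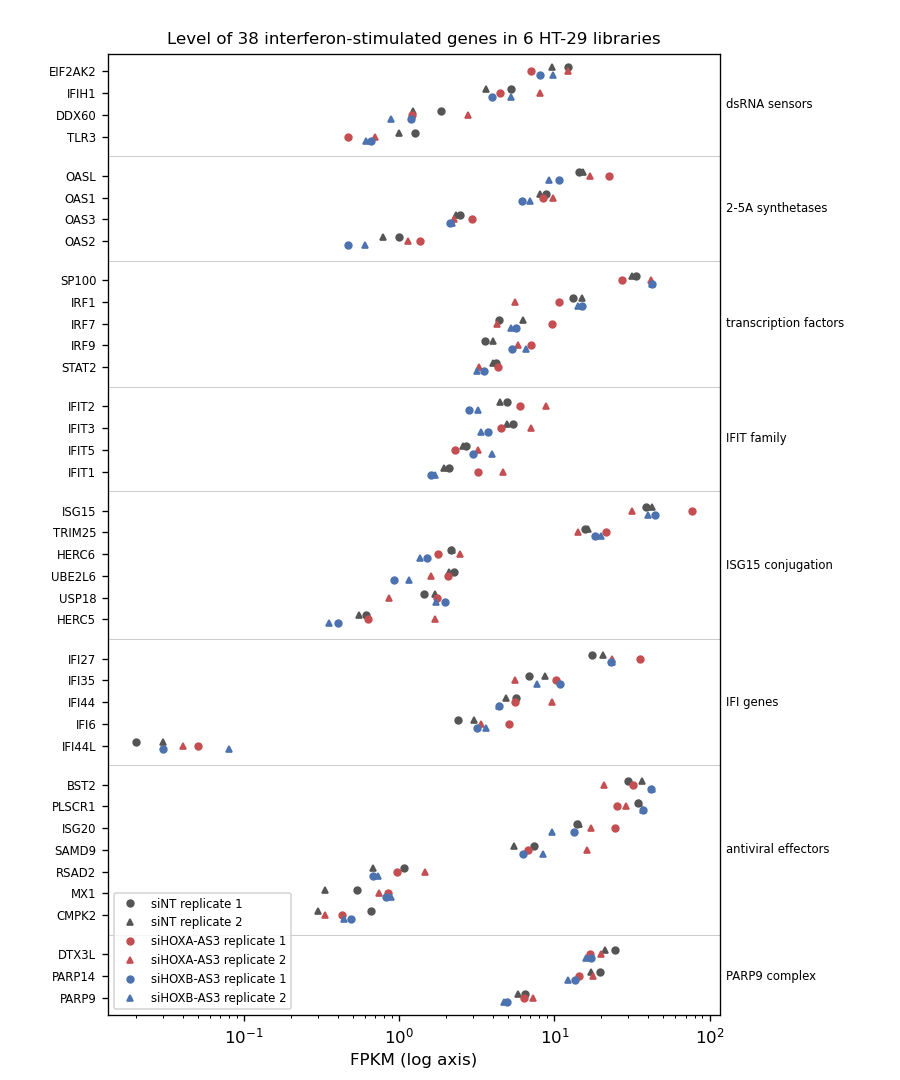
FPKM (log axis) of the 38 interferon-stimulated genes in the 6 libraries, grouped by role and coloured by siRNA pool, with circles for replicate 1 and triangles for replicate 2. ISG15 lies highest on average at 45.9 FPKM, IFI44L lies lowest at 0.02 to 0.08 FPKM, and the siHOXA-AS3 libraries are often the farthest apart of the replicate pairs.

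No member passed the test in any comparison. The test was edgeR's quasi-likelihood test on counts, fitted over all genes, and a gene is called here when its Benjamini-Hochberg adjusted p over all genes tested is under 0.05. In siHOXA-AS3 minus siNT, 0 of 37 members were called, as were 0% of all genes. In siHOXB-AS3 minus siNT, 0 of 37 members were called against 0.0614% of all genes. In siHOXB-AS3 minus siHOXA-AS3, 0 of 37 were called against 1.57% of all genes. DESeq2 called 0, 0 and 3 members in these comparisons, the 3 being IFIT1, IFIT2 and OASL, against 0.453%, 2.73% and 6.04% of all genes.

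Without a filter on low counts edgeR called 0, 0 and 4 members, HERC5 being added, against 0.136%, 1.5% and 3.99% of all genes.

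At an unadjusted p under 0.05, 6 of 37 members were found in siHOXA-AS3 minus siNT (6.16% of all genes), 4 higher (2.75%) and 2 lower (3.41%). In siHOXB-AS3 minus siNT there were 8 (12.2% of all genes), 2 higher (4.42%) and 6 lower (7.75%). In siHOXB-AS3 minus siHOXA-AS3 there were 10 (18.4% of all genes), 3 higher (7.9%) and 7 lower (10.5%). The median log2 fold change of the 37 was 0.16, -0.14 and -0.28 in the 3 comparisons, beside 0.01, -0.01 and -0.01 for all genes tested. In siHOXA-AS3 minus siNT 25 members had a log2 fold change above 0 (51.3% of all genes) and 12 below (48.7%). In siHOXB-AS3 minus siNT 16 were above (49.3%) and 21 below (50.7%), and in siHOXB-AS3 minus siHOXA-AS3 11 were above (48.9%) and 26 below (51.1%). The first and second of these comparisons share the siNT libraries, and each siRNA group enters 2 of the 3.

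The IFIT proteins bind foreign or incompletely capped RNA and block its translation. IFIT1 had 2.09 and 1.93 FPKM in siNT, 3.22 and 4.66 in siHOXA-AS3, and 1.60 and 1.71 in siHOXB-AS3. All 3 groups were apart, with siHOXA-AS3 highest and siHOXB-AS3 lowest. Its log2 fold change was 0.98 ± 0.25 (SE) in siHOXA-AS3 minus siNT (adjusted p = 0.53), -0.24 ± 0.25 in siHOXB-AS3 minus siNT (adjusted p = 0.785) and -1.22 ± 0.25 in siHOXB-AS3 minus siHOXA-AS3 (adjusted p = 0.0748). IFIT2 had 4.94 and 4.46 FPKM in siNT, 5.97 and 8.78 in siHOXA-AS3, and 2.80 and 3.20 in siHOXB-AS3. Its groups stood in the same order without overlap. Its log2 fold change was 0.66 ± 0.25 (adjusted p = 0.736), -0.60 ± 0.25 (adjusted p = 0.399) and -1.26 ± 0.25 (adjusted p = 0.0671) in the 3 comparisons.

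IFIT3 and IFIT5 did not share that order. IFIT3 ranged from 3.35 to 7.05 FPKM, with siHOXB-AS3 lowest and siHOXA-AS3 spanning siNT. IFIT5 ranged from 2.29 to 3.93 FPKM and its siHOXB-AS3 libraries lay above siNT. The median log2 fold change of the 4 IFIT genes was 0.41, -0.37 and -0.94 in the 3 comparisons. For IFIT1 and IFIT2, leaving out siHOXA-AS3 replicate 1 gave -1.46 and -1.51 in siHOXB-AS3 minus siHOXA-AS3, and leaving out replicate 2 gave -0.93 and -0.96.

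The OAS enzymes make 2-5A, the signal that turns on the nuclease RNase L, and OASL is a relative that lacks this activity. OASL had 14.5 and 15.4 FPKM in siNT, 22.6 and 16.9 in siHOXA-AS3, and 10.7 and 9.23 in siHOXB-AS3. siHOXA-AS3 was highest and siHOXB-AS3 lowest, with no overlap. Its log2 fold change was 0.41 ± 0.21 (adjusted p = 0.875), -0.53 ± 0.21 (adjusted p = 0.387) and -0.94 ± 0.22 (adjusted p = 0.0893) in the 3 comparisons. OAS2 had 0.99 and 0.78 FPKM in siNT, 1.35 and 1.14 in siHOXA-AS3, and 0.47 and 0.60 in siHOXB-AS3. Its 3 groups were again apart in this order. Its difference in siHOXB-AS3 minus siHOXA-AS3 was -1.18 ± 0.31 (adjusted p = 0.113). OAS1 ranged from 6.20 to 9.84 FPKM and OAS3 from 2.11 to 2.93 FPKM. All 4 genes had log2 fold changes above 0 in siHOXA-AS3 minus siNT and below 0 in siHOXB-AS3 minus siNT, with medians of 0.27 and -0.42, except that OAS3 changed sign in the first when a library was left out. None of the 4 was called.

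ISG15 is a ubiquitin-like protein that UBE2L6, an E2 enzyme, and HERC5, an E3 ligase, attach to other proteins, and USP18 removes it. ISG15 had 38.8 and 42.7 FPKM in siNT, 77.3 and 31.6 in siHOXA-AS3, and 44.7 and 40.1 in siHOXB-AS3. The siHOXA-AS3 libraries were the highest and the lowest of the 6 and enclosed the rest. Its log2 fold change in siHOXA-AS3 minus siNT was 0.41 ± 0.39 (adjusted p = 0.988), and its direction turned on 1 library: leaving out siHOXA-AS3 replicate 1 gave -0.38, and leaving out replicate 2 gave 0.93. HERC5 had 0.61 and 0.55 FPKM in siNT, 0.63 and 1.71 in siHOXA-AS3, and 0.40 and 0.35 in siHOXB-AS3. Replicate 2 of siHOXA-AS3 alone was far above siNT. Its difference in siHOXB-AS3 minus siHOXA-AS3 was -1.57 ± 0.50 (adjusted p = 0.164), -2.14 without siHOXA-AS3 replicate 1 and -0.69 without replicate 2.

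UBE2L6 had 2.24 and 2.08 FPKM in siNT, 2.06 and 1.61 in siHOXA-AS3, and 0.92 and 1.16 in siHOXB-AS3. The siHOXB-AS3 libraries were the lowest. The log2 fold change in siHOXB-AS3 minus siNT was -0.92 ± 0.31 (adjusted p = 0.284). HERC6, a relative of HERC5, ranged from 1.35 to 2.46 FPKM and was lowest in siHOXB-AS3. USP18 ranged from 0.86 to 1.96 FPKM. TRIM25, a ubiquitin ligase of the RIG-I pathway, ranged from 14.3 to 21.5 FPKM, in a row it shares with the microRNA gene MIR3614.

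Among the sensors, TLR3 had 1.26 and 1.00 FPKM in siNT, 0.47 and 0.70 in siHOXA-AS3, and 0.66 and 0.61 in siHOXB-AS3. Both knockdown groups lay below siNT. The log2 fold change was -0.96 ± 0.33 in siHOXA-AS3 minus siNT (adjusted p = 0.665) and -0.79 ± 0.32 in siHOXB-AS3 minus siNT (adjusted p = 0.383), and 0.17 ± 0.33 between the knockdowns (adjusted p = 0.832). EIF2AK2 ranged from 7.05 to 12.3 FPKM, IFIH1 from 3.64 to 8.04 FPKM, and DDX60, a helicase, from 0.88 to 2.78 FPKM. In these 3 genes the siHOXA-AS3 libraries overlapped siNT.

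Among the transcription factors, IRF9, the DNA-binding part of ISGF3, had 3.57 and 4.04 FPKM in siNT, 7.07 and 5.79 in siHOXA-AS3, and 5.29 and 6.53 in siHOXB-AS3. Both knockdown groups lay above siNT. The log2 fold change was 0.77 ± 0.25 in siHOXA-AS3 minus siNT (adjusted p = 0.641) and 0.69 ± 0.25 in siHOXB-AS3 minus siNT (adjusted p = 0.317). IRF1, a factor known for its response to interferon gamma, had 13.2 and 15.2 FPKM in siNT, 10.7 and 5.53 in siHOXA-AS3, and 15.04 and 14.14 in siHOXB-AS3. It was lowest in siHOXA-AS3, opposite to IFIT1. The log2 fold change of IRF1 was -0.79 ± 0.31 in siHOXA-AS3 minus siNT (adjusted p = 0.753) and 0.88 ± 0.31 in siHOXB-AS3 minus siHOXA-AS3 (adjusted p = 0.201). Without siHOXA-AS3 replicate 1 these values for IRF1 were -1.35 and 1.44, and without replicate 2 they were -0.39 and 0.48.

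SP100, a protein of nuclear bodies, had 33.7 and 31.8 FPKM in siNT, 27.4 and 42.0 in siHOXA-AS3, and 42.5 and 42.6 in siHOXB-AS3. The siHOXB-AS3 libraries lay above siNT, and the siHOXA-AS3 libraries on either side of siNT. Its log2 fold change in siHOXB-AS3 minus siNT was 0.35 ± 0.22 (adjusted p = 0.599). STAT2 ranged from 3.19 to 4.33 FPKM and IRF7, which drives interferon genes, from 4.26 to 9.61 FPKM.

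Among the antiviral effectors, MX1, a GTPase that traps viral particles, had 0.53 and 0.33 FPKM in siNT, 0.85 and 0.74 in siHOXA-AS3, and 0.82 and 0.88 in siHOXB-AS3. Both knockdown groups lay above siNT at a low level. The log2 fold change was 0.83 ± 0.33 in siHOXA-AS3 minus siNT (adjusted p = 0.752) and 0.92 ± 0.32 in siHOXB-AS3 minus siNT (adjusted p = 0.308). ISG20, an RNA exonuclease, had 14.04 and 14.46 FPKM in siNT, 24.6 and 17.1 in siHOXA-AS3, and 13.3 and 9.71 in siHOXB-AS3. It was highest in siHOXA-AS3. Its difference in siHOXB-AS3 minus siHOXA-AS3 was -0.79 ± 0.26 (adjusted p = 0.182).

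BST2, which tethers budding virus to the cell, had 30.0 and 36.5 FPKM in siNT, 32.13 and 20.96 in siHOXA-AS3, and 41.6 and 42.5 in siHOXB-AS3. It was highest in siHOXB-AS3, and its difference in siHOXB-AS3 minus siHOXA-AS3 was 0.71 ± 0.25 (adjusted p = 0.203). PLSCR1, a phospholipid scramblase, had 34.8 and 35.0 FPKM in siNT, 25.5 and 29.1 in siHOXA-AS3, and 37.2 and 37.2 in siHOXB-AS3. It was lowest in siHOXA-AS3, with a difference of 0.49 ± 0.17 in siHOXB-AS3 minus siHOXA-AS3 (adjusted p = 0.192). SAMD9 ranged from 5.46 to 16.2 FPKM, the highest value in siHOXA-AS3 replicate 2. RSAD2, also called viperin, ranged from 0.68 to 1.47 FPKM and its neighbour CMPK2 from 0.30 to 0.66 FPKM.

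IFI27, a small membrane protein, had 17.5 and 20.6 FPKM in siNT, 35.7 and 23.4 in siHOXA-AS3, and 23.1 and 23.5 in siHOXB-AS3. Both knockdown groups lay above siNT. The log2 fold change was 0.62 ± 0.27 in siHOXA-AS3 minus siNT (adjusted p = 0.811) and 0.35 ± 0.27 in siHOXB-AS3 minus siNT (adjusted p = 0.666). IFI35 ranged from 5.54 to 10.9 FPKM, IFI44 from 4.40 to 9.68 FPKM and IFI6 from 2.39 to 5.09 FPKM.

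DTX3L and PARP9 form a complex of a ubiquitin ligase and an ADP-ribosyltransferase, and PARP14 is a relative of PARP9. DTX3L had 24.7 and 21.2 FPKM in siNT, 17.05 and 20 in siHOXA-AS3, and 17.15 and 16.04 in siHOXB-AS3. Both knockdown groups lay below siNT. Its log2 fold change in siHOXB-AS3 minus siNT was -0.42 ± 0.17 (adjusted p = 0.396). PARP14 had 19.6 and 17.2 FPKM in siNT, 14.4 and 17.7 in siHOXA-AS3, and 13.7 and 12.1 in siHOXB-AS3. It was lowest in siHOXB-AS3, by -0.46 ± 0.18 against siNT (adjusted p = 0.368). PARP9 ranged from 4.72 to 7.26 FPKM.

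**Figure D2:**
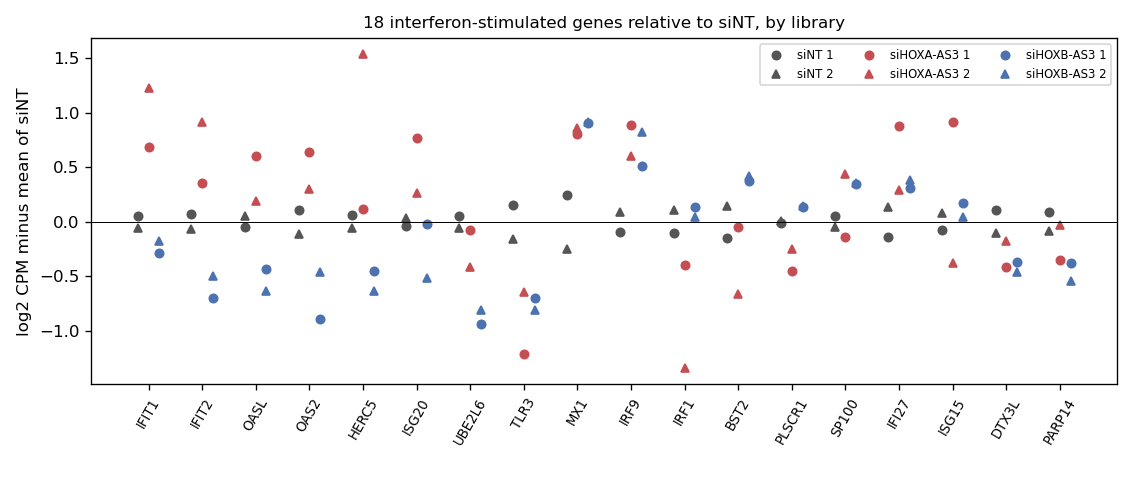
Log2 CPM (counts scaled to library size) of 18 members in each library minus the mean of both siNT values, with circles for replicate 1 and triangles for replicate 2. IFIT1, IFIT2, OASL, OAS2, HERC5 and ISG20 lie above 0 in both siHOXA-AS3 libraries and below 0 in both siHOXB-AS3 libraries. IRF1, BST2 and PLSCR1 show the reverse. TLR3, UBE2L6, DTX3L and PARP14 lie below 0 in all 4, and MX1, IRF9 and IFI27 above 0 in all 4.

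**Figure D3:**
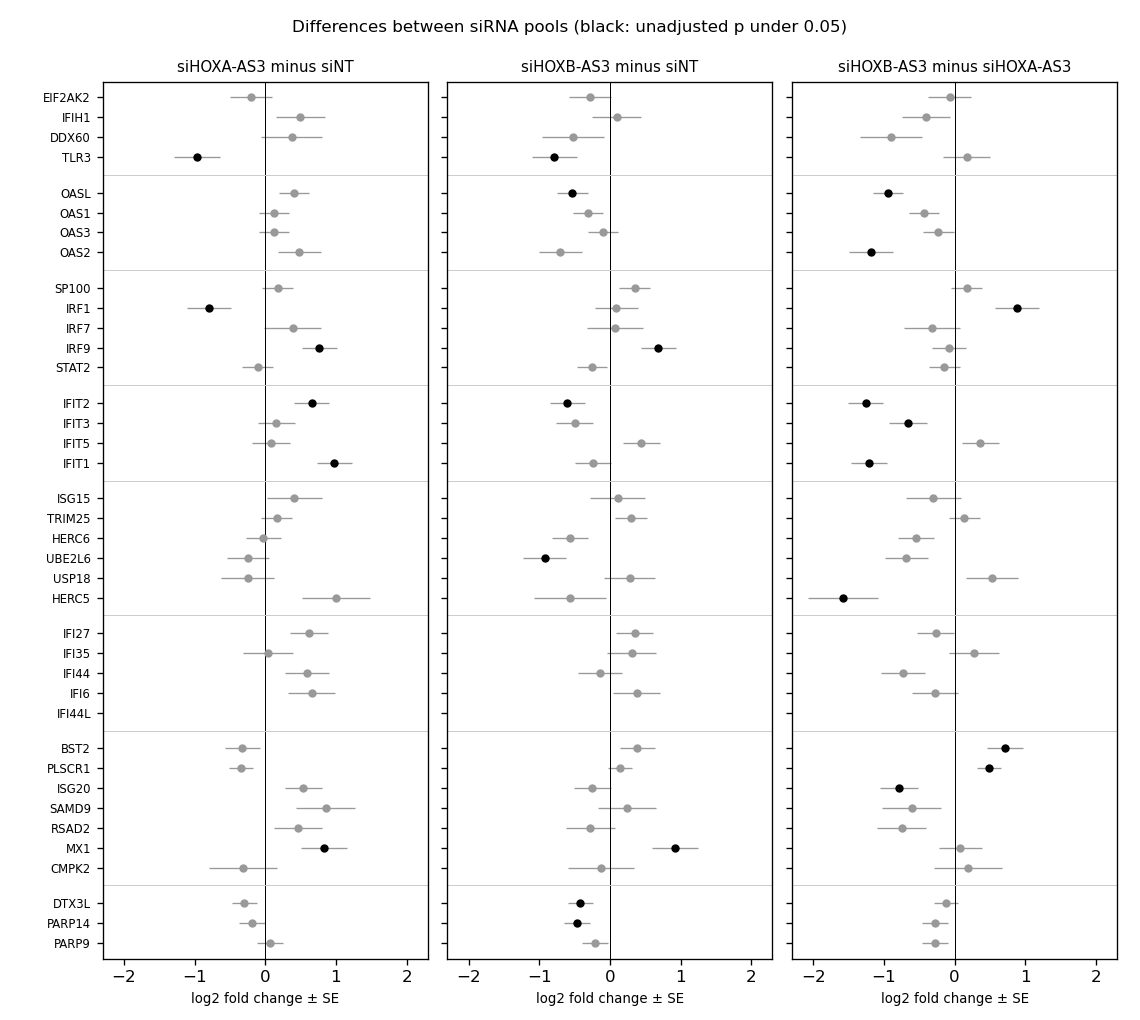
Log2 fold change with its standard error for the 37 members tested in the 3 comparisons, in the role order of the levels, black where the unadjusted p is under 0.05. 6, 8 and 10 members are black, and none has an adjusted p under 0.05.

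With only 2 libraries a group, non-overlap in CPM (counts scaled to library size) was common among all genes. 11 of 37 members lay above siNT in both siHOXA-AS3 libraries (12.5% of all genes) and 5 lay below (16.1% of all genes). In siHOXB-AS3 against siNT 10 were higher (30.9% of all genes) and 16 lower (30.9% of all genes). In siHOXB-AS3 against siHOXA-AS3 5 were higher (22.8% of all genes) and 14 lower (22.5% of all genes).

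Replicates differed along the GC content of the genes, most in siHOXA-AS3. The sign of these differences follows the replicate numbers, which were not taken as pairs, so only their size compares between groups. Across the 37 members, the log2 difference between replicate 2 and replicate 1 of siHOXA-AS3 had an SD of 0.71, against 0.32 in siNT and 0.23 in siHOXB-AS3. In siHOXA-AS3 it fell with GC content (Pearson r = -0.88, Spearman rho = -0.85 over 37 genes of the same 2 libraries, a description without a test). In siNT it rose with GC content (Pearson r = 0.55, Spearman rho = 0.63), and in siHOXB-AS3 Pearson r was -0.295 and Spearman rho -0.26. Over all genes with a GC value Pearson r was -0.75 in siHOXA-AS3, 0.38 in siNT and -0.14 in siHOXB-AS3. 5 of 37 members differed at least 2-fold between the siHOXA-AS3 libraries, as did 13.4% of all genes. The GC-rich genes ISG15 (64.2% GC) and IRF7 (66.6%) were higher in replicate 1, whereas SAMD9 (36.0%) and HERC5 (44.1%) were higher in replicate 2.

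**Figure D4:**
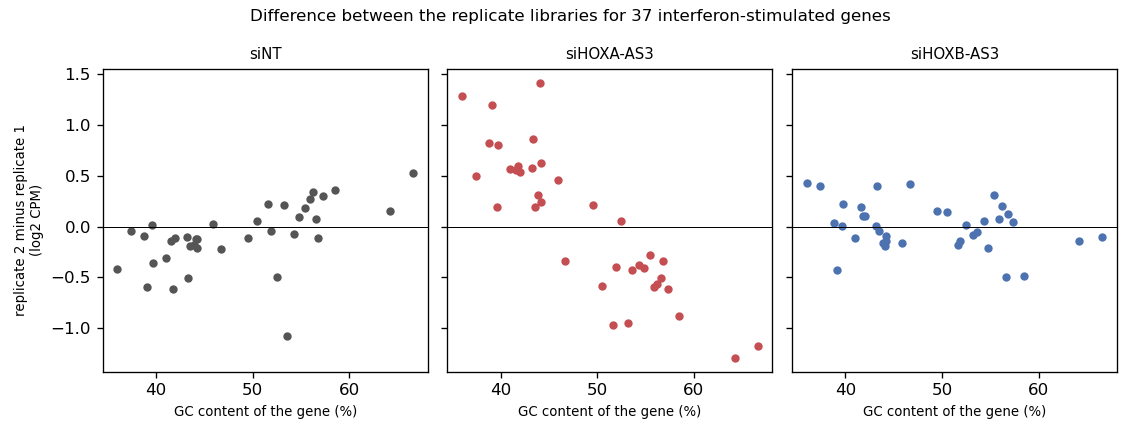
Difference in log2 CPM between replicate 2 and replicate 1 in each group, against the GC content of the gene in percent, for the 37 members tested. In siHOXA-AS3 the difference falls along GC content (Pearson r = -0.88), in siNT it rises (Pearson r = 0.55), and in siHOXB-AS3 the points lie close to 0 (SD 0.23). The sign follows the replicate numbers and does not compare between groups.

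When a smooth trend on GC content was taken out of each library, members were called in all 3 comparisons. In siHOXA-AS3 minus siNT 7 of 37 were called (18.9%), against 4.92% of all genes. 6 were higher (2.26% of all genes), namely IFIT1, IFIT2, IFI27, IRF9, OASL and SAMD9. 1 was lower (2.66%), namely IRF1. IFIT1 had a log2 fold change of 0.93 (adjusted p = 0.00852). SAMD9 had 6.71 and 16.2 FPKM in siHOXA-AS3 against 7.34 and 5.46 in siNT, so only replicate 2 of siHOXA-AS3 lay above siNT. In siHOXB-AS3 minus siNT 7 of 37 were called (18.9%), against 16.2% of all genes. 3 were higher (8.74% of all genes), namely BST2, IRF9 and SP100, and 4 were lower (7.48%), namely DTX3L, IFIT2, OASL and PARP14.

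In siHOXB-AS3 minus siHOXA-AS3 12 of 37 were called with the trend removed (32.4%), against 28.2% of all genes. 9 were lower in siHOXB-AS3 (12.6% of all genes), namely DDX60, HERC5, IFI44, IFIT1, IFIT2, IFIT3, ISG20, OAS2 and OASL, and 3 were higher (15.6%), namely BST2, IRF1 and PLSCR1. The largest of these differences was that of HERC5, at -1.51 (adjusted p = 0.0169). That of IFIT2 was -1.23 (adjusted p = 2.7e-04), of IFIT1 -1.19 (adjusted p = 5.2e-04) and of OASL -0.90 (adjusted p = 6.21e-04). DDX60 had 7.14 and 16.5 CPM in siHOXA-AS3 against 7.23 and 5.37 in siHOXB-AS3, so its knockdown groups overlapped. The share of members called was near that of all genes in both comparisons that involve siHOXB-AS3. The median log2 fold change of the members with the trend removed was 0.18, -0.15 and -0.21 in the 3 comparisons.

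Fits of only the groups compared called 0 members in siHOXA-AS3 minus siNT (0% of all genes) and 0 in siHOXB-AS3 minus siHOXA-AS3 (0.0156% of all genes). In siHOXB-AS3 minus siNT, such a fit leaves out the siHOXA-AS3 libraries and called 12 members, against 23.3% of all genes. BST2, IRF9, SP100 and TRIM25 were higher, and DTX3L, HERC6, IFIT2, IFIT3, OASL, PARP14, TLR3 and UBE2L6 lower. Without siHOXA-AS3 replicate 1, 10, 12 and 23 of 38 members were called in the 3 comparisons, against 30.3%, 22.7% and 37.8% of all genes. Without siHOXA-AS3 replicate 2, 12, 12 and 13 were called, against 17.9%, 22.6% and 36% of all genes.

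**Figure D5:**
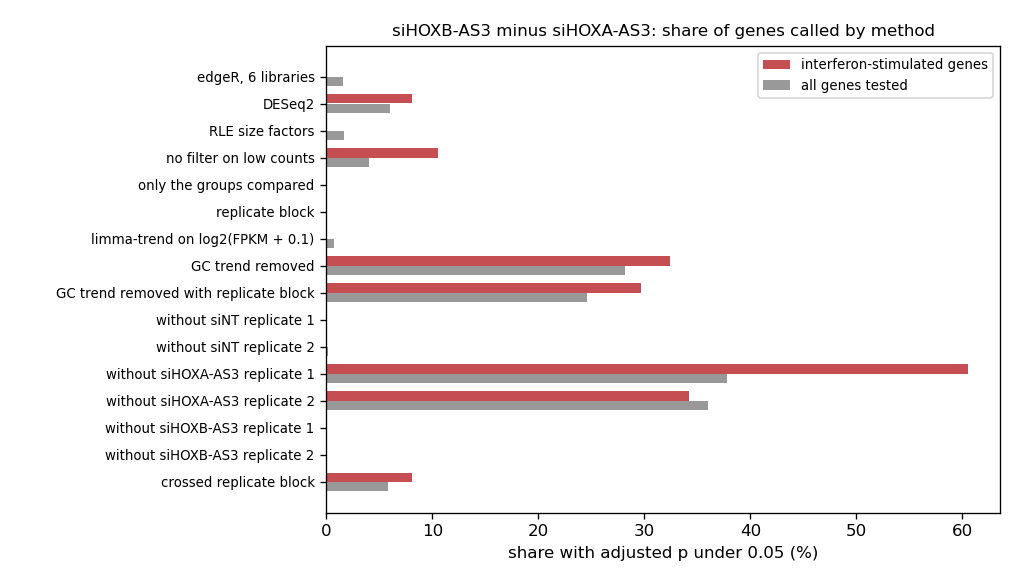
Share in percent of the members tested (red) and of all genes tested (grey) with an adjusted p under 0.05 in siHOXB-AS3 minus siHOXA-AS3, by method, the bars starting at 0. The fit over 6 libraries calls 0% of members and 1.57% of all genes, and with the GC trend removed the shares are 32.4% and 28.2%.

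The interferons themselves were almost absent from these libraries. Of 21 interferon genes, 15 had a count of 0 in every library and 18 had at most 1, and a count of 0 allows up to 0.114 to 0.188 CPM (3 counts, counting error only). IFNB1 had counts of 0 and 0 in siNT, 0 and 0 in siHOXA-AS3, and 1 and 1 in siHOXB-AS3. The type III gene IFNL1 had counts of 3 and 0, 8 and 0, and 4 and 8. Only IFNE, an epithelial type I interferon, was tested. IFNE had 3.77 and 2.49 FPKM in siNT, 2.93 and 5.44 in siHOXA-AS3, and 1.25 and 1.18 in siHOXB-AS3. It was lowest in siHOXB-AS3, with a log2 fold change of -1.32 ± 0.39 against siNT (adjusted p = 0.244) and -1.73 ± 0.39 against siHOXA-AS3 (adjusted p = 0.0893). In the GENCODE annotation (GRCh38) IFNE lies within the noncoding gene MIR31HG on the same strand, with 0 exon bases shared.

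The receptors were expressed in every library. IFNAR1 had 7.16 and 5.73 FPKM in siNT, 5.00 and 9.12 in siHOXA-AS3, and 5.94 and 6 in siHOXB-AS3, and IFNAR2 ranged from 6.98 to 8.64 FPKM. For type III interferon, IFNLR1 ranged from 0.80 to 1.42 FPKM and IL10RB from 10.5 to 12.5 FPKM. The receptor of interferon gamma differed more. IFNGR1 had 85.4 and 66.5 FPKM in siNT, 58.4 and 95.6 in siHOXA-AS3, and 140.7 and 151.0 in siHOXB-AS3. It was highest in siHOXB-AS3, by 0.99 ± 0.26 on the log2 scale against siNT (adjusted p = 0.198) and 0.96 ± 0.26 against siHOXA-AS3 (adjusted p = 0.121). IFNGR2 had 35.8 and 33.5 FPKM in siNT, 53.8 and 52.1 in siHOXA-AS3, and 34.6 and 31.4 in siHOXB-AS3. It was highest in siHOXA-AS3, by 0.62 ± 0.16 against siNT (adjusted p = 0.53), and its difference in siHOXB-AS3 minus siHOXA-AS3 was -0.64 ± 0.16 (adjusted p = 0.105).

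In all, 94 further genes of the interferon pathway were listed (ligands, receptors and transducers, sensors and adaptors, feedback inhibitors, and other interferon-stimulated genes), of which 63 could be tested. 0 of the 63 were called in each comparison, and 1, 7 and 7 had an unadjusted p under 0.05, against 6.16%, 12.2% and 18.4% of all genes. Their median log2 fold change was 0.03, -0.02 and -0.14. DESeq2 called IFNGR1 in siHOXB-AS3 minus siNT, and IFNE, IFNGR1, MYD88 and ZC3HAV1 in siHOXB-AS3 minus siHOXA-AS3, against 2.73% and 6.04% of all genes. ZC3HAV1, the zinc-finger antiviral protein, had 21.9 and 21.8 FPKM in siNT, 24.0 and 25.3 in siHOXA-AS3, and 18.2 and 16.2 in siHOXB-AS3. Its difference in siHOXB-AS3 minus siHOXA-AS3 was -0.73 ± 0.17 (adjusted p = 0.093). CXCL11, a chemokine, reached 2.31 FPKM in siHOXA-AS3 replicate 2 and was 0.38 to 0.60 FPKM in the other 5 libraries. TLR7 and TLR8 reached at most 0.05 and 0 FPKM.

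Promoters are shown because the response element is what the class is known for, so its share among the members is a description and not independent of how they were chosen. In RefSeq promoters (GRCh38.p14, 250 bases before to 50 after each start), 33 of the 38 members matched, the others being IFIT2, IRF7, OAS2, OASL and USP18. The ISRE core, taken as GAAA, any 2 bases and GAAA again and searched on both strands, was in 28 of 45 member promoters (62.2%) and in 3.57% of all 35116 promoters. The GAS element TTCNNNGAA, known from the response to interferon gamma, was in 13 of 45 (28.9%) and in 7.66% of all. In the lines below, each written along the strand of the gene, capitals mark the match, and a match is a description of the letters.
IFIT1, ISRE core on the opposite strand, chr10:89392499-89392524, + strand: agctttagTTTCACTTTCccctttcg
HERC5, ISRE core on the opposite strand, chr4:88457037-88457062, + strand: acattatgTTTCGTTTTCcactggag
ISG20, ISRE core, chr15:88638939-88638964, + strand: acaaactaGAAACTGAAAcagggtcg
MX1, ISRE core, chr21:41420561-41420586, + strand: gcagaaatGAAACCGAAActgaattg
ISG15, ISRE core, chr1:1013382-1013407, + strand: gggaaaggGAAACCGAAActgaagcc
IRF9, GAS, chr14:24161194-24161218, + strand: cacgtgatTTCTGGGAAaaggccct
IRF1, GAS, chr5:132490881-132490905, - strand: agcctgatTTCCCCGAAatgacggc
The ISRE core was found in 23 of the 33 members matched. IFIT1, HERC5 and ISG20, highest in siHOXA-AS3, held it, and so did BST2, highest in siHOXB-AS3, PLSCR1, lowest in siHOXA-AS3, TLR3 and DTX3L, below siNT in both knockdown groups, and MX1, above siNT in both. BST2, PLSCR1, TLR3 and an MX1 promoter other than the one shown held the GAS element beside the ISRE core. IRF1, IRF9, OAS1 and IFI35 held the GAS element and no ISRE core in this window. UBE2L6 and HERC6, lowest in siHOXB-AS3, and SP100 and TRIM25, above siNT in siHOXB-AS3, held no ISRE core either. Nor did STAT2 or CMPK2. IFIT2, OAS2 and OASL, highest in siHOXA-AS3, had no promoter to search. Whether the element goes with the order of levels was not tested.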

How the data were processed

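RNA-seq was made from polyA RNA (Lexogen Sense mRNA kit) of 6 HT-29 libraries. The authors quantified each with RSEM on RefSeq genes. The submitters' processing notes name the build hg19. For the aligner, the tool versions and the use of strand, nothing is given in the sources used here. The deposited expected counts are estimated fragments per gene, without normalization. FPKM as deposited corrects those counts for the length of a gene and the size of the library, and the deposited TPM values were not used for tests. 627 of 27434 rows join several genes (6.02% to 6.62% of counts), and rows without a symbol held at most 0.0474%.

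Expected counts were rounded and tested in R 4.3.3 with edgeR 4.0.16 (filterByExpr with minimum count 10, TMM, robust quasi-likelihood fit of the 3 groups over all 6 libraries, Benjamini-Hochberg over all 13034 genes tested, threshold 0.05). No pair of libraries was identical (smallest chi-square per degree of freedom 7.07). The calling step was tested on simulated data. These had the same spread in every group and no GC trend, unlike the siHOXA-AS3 libraries. GC content was known for 98.0% of genes tested and for all 38 members.

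The members and lists were chosen with earlier results of these data known. Values per library are given for the 6 members with the smallest unadjusted p in each comparison and the 6 with the highest mean FPKM, and of other genes for the receptors and the 2 pathway genes with the smallest unadjusted p in each comparison. HERC6, IFI44L, SAMD9, MYD88 and TLR7 and others outside this rule are given by range or count. Values of some listed genes are not reported here. Alternatives were DESeq2 1.42.0, RLE size factors, no filter, fits of the compared groups alone, a block on replicate number, limma-trend (limma 3.58.1) on log2(FPKM + 0.1), a loess trend (span 0.5) on GC content removed per library, that trend with the block, and each library left out. A crossed block was added after the data were seen.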

Additional observations from a re-analysis of the deposited data

How the results depend on the processing

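Of 18 fold changes followed under 15 alternatives each (the 6 members with the smallest unadjusted p in each comparison), all 270 values kept their direction, 203 stayed on their side of the threshold and 67 became called. These were chosen for a small p. Of all 37 members, 16, 5 and 14 took the other sign under at least 1 alternative in siHOXA-AS3 minus siNT, siHOXB-AS3 minus siNT and siHOXB-AS3 minus siHOXA-AS3, each of them when a library was left out. In siHOXA-AS3 minus siNT, ISG15 ranged from -0.38 to 0.93, IRF7 from -0.32 to 0.87 and DDX60 from -0.35 to 0.85. The counts of calls moved far more. In the order siHOXA-AS3 minus siNT, siHOXB-AS3 minus siNT and siHOXB-AS3 minus siHOXA-AS3, all genes called numbered 0, 8 and 204 and members called 0, 0 and 0. DESeq2 called 59, 356 and 787 genes and 0, 0 and 3 members. Without a filter these were 24, 265 and 706 genes and 0, 0 and 4 members. With only the groups compared they were 0, 2995 and 2 genes and 0, 12 and 0 members. Limma-trend on FPKM called 1, 12 and 93 genes and no member, and gave a member median of -0.24 in siHOXB-AS3 minus siNT. With the GC trend removed 641, 2114 and 3682 genes and 7, 7 and 12 members were called, and the member median in siHOXB-AS3 minus siHOXA-AS3 was -0.205. That trend with the replicate block gave 383, 1587 and 3206 genes, 3, 6 and 11 members and a median of -0.207. Of the genes called in siHOXB-AS3 minus siHOXA-AS3, 40.2% were higher (82 higher, 122 lower), and with the GC trend removed 55.2% (2034 higher, 1648 lower). The causes were not tested.

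The replicate block alone gave 0, 0 and 10 genes and 0 members. Deviations of same-numbered libraries correlated at -0.347 between siNT and siHOXA-AS3, -0.139 between siNT and siHOXB-AS3 and 0.15 between the knockdowns, and with no pairing stated in the labels the numbers were not taken as pairs. A block with the siNT numbers exchanged, chosen after seeing the data, gave 14, 225 and 758 genes and 0, 0 and 3 members.

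Leaving out 1 library at a time, genes called ranged from 0 to 4031, 0 to 3035 and 0 to 5027, and members called from 0 to 12, 0 to 12 and 0 to 23. The highest counts came without a siHOXA-AS3 library. Without siHOXB-AS3 replicate 1 or 2, 0 genes were called in every comparison. Without siNT replicate 1 the counts were 0, 0 and 6 genes, and without siNT replicate 2 they were 1, 1 and 16. The member medians ranged from 0.083 to 0.226, from -0.205 to -0.088 and from -0.283 to -0.22. A lone remaining library is assumed to vary like the other groups. Counts under about 10 per library, as for IFI44L, limit what can be tested.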
